A study of Mus musculus with 12 samples.

Results

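ErbB receptors and their ligands are 10 genes, taken by symbol from the 21960 genes listed for each tumor, and all 10 were found. They are the 4 receptors Egfr, Erbb2, Erbb3 and Erbb4 and the 6 ligands Areg, Tgfa, Hbegf, Btc, Nrg1 and Ereg. RNA from 12 whole PyMT mammary tumors was sequenced, 3 in each of 4 groups, to ask how doxorubicin (DOX), an anthracycline, and an antibody that blocks the immune receptor PD-1 (clone 4H2) act on the tumors alone and together. The mice were C57BL/6 females that carry the polyoma middle T oncogene under the mouse mammary tumor virus promoter, which drives it in mammary epithelium, and their age at sampling is not given. IgG1 tumors received the isotype control antibody and anti-PD-1 tumors the blocking antibody, from a tumor diameter of 0.6 cm, at 20 mg/kg and then 10 mg/kg. DOX/IgG1 and DOX/anti-PD-1 tumors received 5 mg/kg doxorubicin and, a day later, 10 mg/kg of the same antibodies, from a diameter of 1 cm. The labels give weekly treatment for 5 weeks to every group, whereas the study's methods give the groups without doxorubicin an antibody schedule of their own. Doxorubicin, starting size, first antibody dose and schedule therefore cannot be told apart. No group went without antibody, and the labels do not say more about the mice behind the tumors, so p-values here measure the spread between tumors.

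ErbB receptors are tyrosine kinases that pair when a ligand binds and then signal through RAS and ERK and through PI3K and AKT. The ligands are made as membrane-bound precursors, and proteases called sheddases release most of them. In the mammary gland, amphiregulin (Areg) acting on Egfr drives the growth of ducts, and Erbb4 acts in the cells that make milk. Polyoma middle T sits at the membrane and recruits Src kinases, Shc and PI3K itself, proteins that ErbB receptors also use.

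Values are TPM, a relative transcript abundance scaled for gene length, and tests and figures of members use log2(TPM + 1). TPM hold no counts, so the depth is unknown, and a value of 0 says only that the gene was listed at 0. Rps12 was listed at 0 in 4 tumors and Lsm7 in 1 although they averaged 30.7 and 31.8 TPM. The luminal epithelial markers matched the mammary label, with all 7 of 7 at or above 1 TPM in every tumor. Their most abundant gene, Epcam, lay between 418 and 954 TPM. The library DOX/IgG1 1 stood apart. It had the most genes at 0 (8104), a median correlation of 0.8835 with the other tumors, and the lowest sums of luminal (2046 TPM) and fibroblast markers (528 TPM). Its column header also carries the word test. DOX/anti-PD-1 3 had a median correlation of 0.8876, and in the remaining tumors it was at least 0.901, over genes, which are not replicates of each other. The headers of the 3 DOX/anti-PD-1 tumors carry a mark that differs from all others, whose meaning is not given, and the mark and the group cannot be told apart. Many estimates moved without DOX/IgG1 1, and a number of the larger moves are given.

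Among the receptors, Egfr and Erbb3 were the most abundant. Egfr (ENSMUSG00000020122, chr11:16752203-16918158, GRCm38), the receptor of Areg and Tgfa, averaged 65.4 ± 19.8 TPM (SD, n = 12). Erbb3 (ENSMUSG00000018166, chr10:128567523-128589652), a neuregulin receptor with a weak kinase that docks PI3K, averaged 57.1 ± 12.9 TPM. Erbb2 (ENSMUSG00000062312, chr11:98412470-98437716), which has no known ligand and serves as a partner of the others, averaged 30.9 ± 5.36 TPM. The highest receptor was Egfr in 8 tumors and Erbb3 in 4. Erbb3 exceeded Erbb2 in 12 of 12 tumors, and this was the only step among these 3 receptors beyond the spread of the difference within tumors, with a mean log2 difference of 0.86 and an SD of 0.23.

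Erbb2 and Erbb3 kept to a narrow range across the treatments. Erbb2 lay between 21.8 and 39.9 TPM, and its SD within groups was 0.21 on the log2 scale, with 95.8% of 14735 genes more variable. By group it averaged 32.05 ± 5.26 TPM in IgG1 tumors, 25.2 ± 4.67 in anti-PD-1, 33.7 ± 5.48 in DOX/IgG1 and 32.5 ± 3.41 in DOX/anti-PD-1 (SD, n = 3). Erbb3 averaged 63.4 ± 13.4, 49.0 ± 8.75, 51.0 ± 7.98 and 65.1 ± 17.1 TPM in the same order. Its SD within groups of 0.29 was exceeded by 84.5% of genes. Egfr averaged 59.6 ± 12.8, 76.7 ± 21.7, 73.2 ± 18.6 and 52.0 ± 23.9 TPM. For each of these receptors the values of the 4 groups overlapped. Between DOX/IgG1 and IgG1 tumors the Egfr log2 fold change was 0.28, and 0.50 without DOX/IgG1 1.

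**Figure D1:**
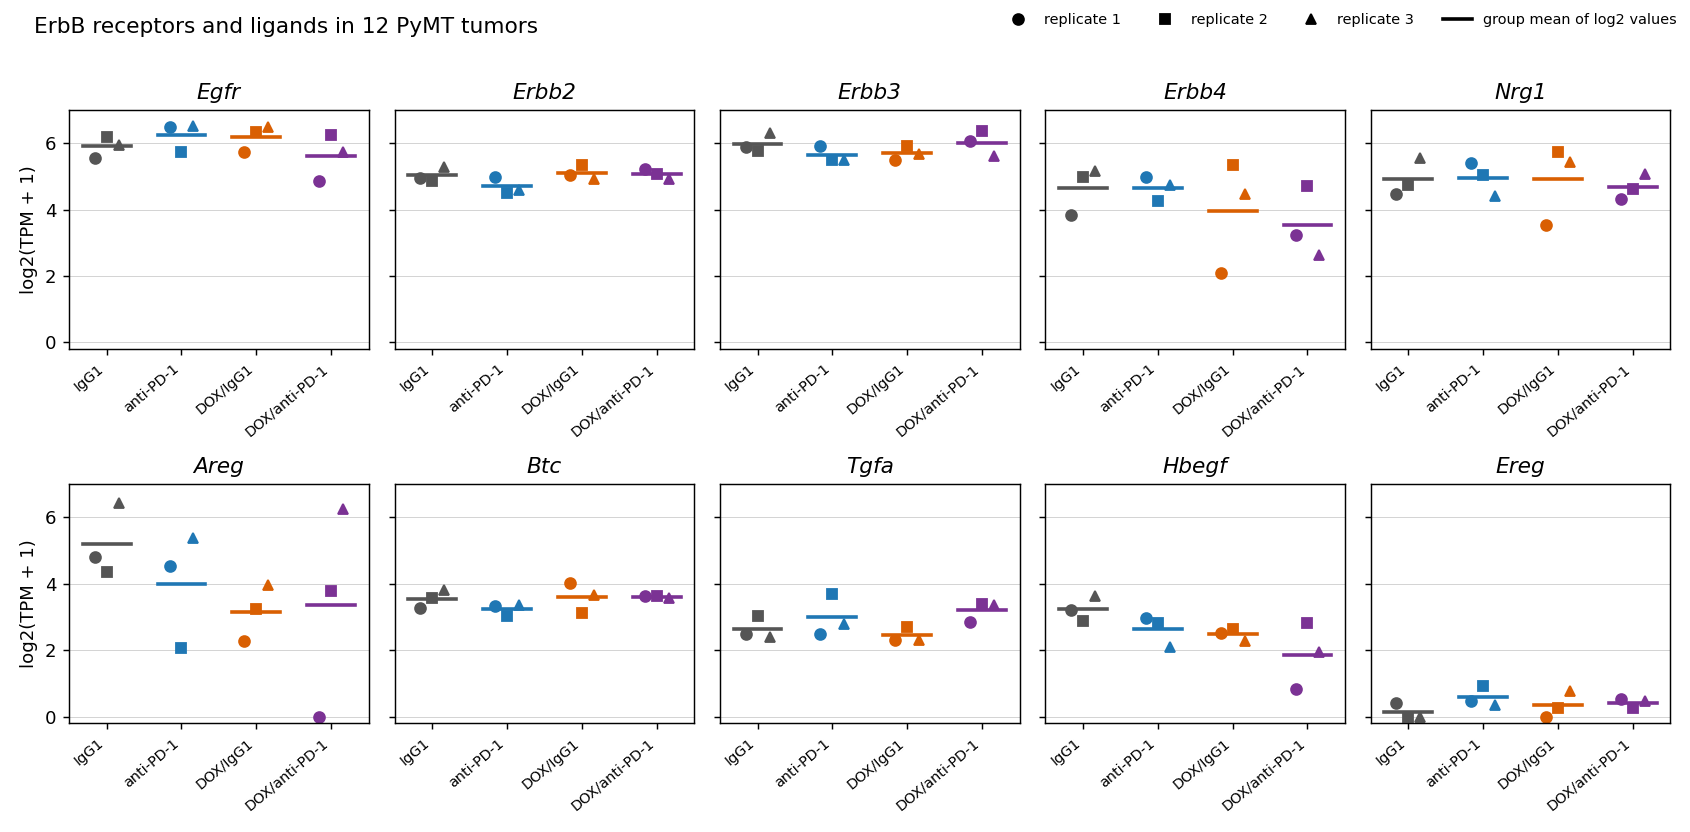
Each panel shows a member as log2(TPM + 1) in every tumor by treatment group, with replicates as circles, squares and triangles and a line at the group mean of the log2 values. Erbb2, Erbb3 and Btc lie close together, Areg and Erbb4 spread widely, and Ereg stays below 1 TPM.

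Erbb4, by contrast, was uneven from tumor to tumor. Erbb4 (ENSMUSG00000062209, chr1:68032186-69108059) binds neuregulins and takes part in the maturation of milk-producing cells. It was listed at 13.4, 30.4 and 34.4 TPM in the IgG1 group, 30.4, 18.2 and 25.5 in anti-PD-1, 3.24, 39.6 and 21.3 in DOX/IgG1 and 8.46, 25.3 and 5.15 in DOX/anti-PD-1. The 3 lowest tumors had all received doxorubicin, yet the highest tumor had too, and the groups overlapped. Its SD within groups of 1.08 was exceeded by 6.12% of genes. Over both antibodies its log2 fold change with doxorubicin was -0.91 (standard error 0.49, adjusted p = 0.485 from limma), and -0.51 without DOX/IgG1 1. For DOX/anti-PD-1 against anti-PD-1 it was -1.13 (standard error 0.50, adjusted p = 0.58), and from -1.72 to -0.68 with a tumor left out. Between DOX/IgG1 and IgG1 tumors it was -0.69, and without DOX/IgG1 1 it turned to 0.26.

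Nrg1 (ENSMUSG00000062991, chr8:31814551-32884029), the neuregulin that binds Erbb3 and Erbb4, had the highest mean of the ligands, 30.6 ± 12.7 TPM (SD, n = 12). It was listed at 21.2, 25.6 and 45.6 TPM in the IgG1 group, 41.6, 31.8 and 20.4 in anti-PD-1, 10.7, 52.7 and 42.1 in DOX/IgG1 and 18.9, 23.8 and 32.6 in DOX/anti-PD-1. Both its lowest and its highest value were in DOX/IgG1 tumors, so that group covered all the others. With doxorubicin over both antibodies the log2 fold change was -0.15 (standard error 0.34), and 0.14 without DOX/IgG1 1. Between DOX/IgG1 and IgG1 tumors it was -0.0083, and without DOX/IgG1 1 it turned to 0.67 (standard error 0.36), and neither was called. Nrg1 was the top ligand in 7 tumors, Areg in 4 and Btc in 1.

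Areg, the ligand of mammary duct growth, was the most variable member. It was listed at 26.9, 19.6 and 84.6 TPM in the IgG1 group, 22.0, 3.17 and 40.4 in anti-PD-1, 3.81, 8.46 and 14.5 in DOX/IgG1 and 0, 12.8 and 75.6 in DOX/anti-PD-1. All 3 DOX/IgG1 tumors lay below all 3 IgG1 tumors, whereas DOX/anti-PD-1 held both the lowest value and a high value and overlapped with every group. Its SD within groups was 1.92 on the log2 scale, and 0.59% of genes were more variable. The log2 fold change between DOX/IgG1 and IgG1 tumors was -2.04 (standard error 0.60, 95% interval -3.41 to -0.68, adjusted p = 0.494), and -1.60 without DOX/IgG1 1 (adjusted p = 0.293). For DOX/anti-PD-1 against anti-PD-1 it was -0.64 (standard error 1.39), and without DOX/anti-PD-1 1, where Areg was listed at 0, it turned to 1.04. With a pseudocount of 0.1 TPM in place of 1 it was -1.63. That tumor also had the highest sums of skeletal muscle (669 TPM, 5 of 5 markers at or above 1 TPM, Acta1 at 193) and adipocyte markers (476 TPM, 5 of 5, Adipoq at 177), whose part in the Areg value was not tested. The difference between these doxorubicin effects, the interaction, was 1.41 (standard error 1.74, adjusted p = 0.993).

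Areg, Btc and Ereg share a stretch of chromosome 5 with a further ligand gene, Epgn, and the 4 genes span 375531 bases. Areg (ENSMUSG00000029378) lies at chr5:91139599-91148432 and Btc (ENSMUSG00000082361) at chr5:91357261-91402994, on opposite strands. The pair shows how differently neighbors in this cluster varied, since the SD within groups was 1.92 for Areg and 0.28 for Btc. Their promoters are therefore set side by side, as the 250 bases before each start on the strand of the gene, from RefSeq (GRCm38.p6), which held 6 of the 10 members. Areg is at chr5:91139349-91139598 on the + strand and Btc at chr5:91402995-91403244 on the - strand. Capitals mark matches to any of 6 motifs, searched on both strands.
Areg: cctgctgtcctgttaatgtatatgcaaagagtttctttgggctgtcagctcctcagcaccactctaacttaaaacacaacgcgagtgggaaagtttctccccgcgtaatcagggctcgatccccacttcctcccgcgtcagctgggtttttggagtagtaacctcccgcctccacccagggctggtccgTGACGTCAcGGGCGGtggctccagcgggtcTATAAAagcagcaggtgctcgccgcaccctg
Btc: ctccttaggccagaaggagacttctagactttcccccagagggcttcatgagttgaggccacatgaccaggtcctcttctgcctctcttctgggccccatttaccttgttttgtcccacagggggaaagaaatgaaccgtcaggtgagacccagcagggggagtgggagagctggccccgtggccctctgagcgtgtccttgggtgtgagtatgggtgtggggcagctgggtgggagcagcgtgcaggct
The Areg window holds a cyclic AMP response element (TGACGTCA) whose first base lies at -61, a GC box (GGGCGG) at -52 and a TATA box (TATAAA) at -31, none of which overlap. Of 32851 promoters, 1.55% hold the first motif, 32.7% the GC box and 12.4% the TATA box. Neither window holds the AP-1 site TGANTCA (6.75% of promoters), CCAAT (33.8%) or the E-box CACGTG (6.02%), and the Btc window holds none of the 6. The GC content was 57.2% for Areg and 59.6% for Btc, against a median of 52.4% over all promoters. Of the other members held, Erbb4 had none of the 6 motifs, Egfr had 1 GC box, Tgfa had 2 and Erbb2 had CCAAT at -41. Whether motifs go with the spread of a member was not tested. A match is a description of letters and no measurement of binding.

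Btc, betacellulin, which binds Egfr and Erbb4, was among the steadiest members. It was listed at 8.60, 10.9 and 13.2 TPM in the IgG1 group, 9.05, 7.14 and 9.39 in anti-PD-1, 15.3, 7.78 and 11.6 in DOX/IgG1 and 11.4, 11.4 and 10.95 in DOX/anti-PD-1. All 3 DOX/anti-PD-1 tumors lay above all 3 anti-PD-1 tumors, and the other groups overlapped with both. That log2 fold change was 0.37 (standard error 0.30, adjusted p = 0.745). Btc exceeded Tgfa in 11 of 12 tumors.

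Hbegf, heparin-binding EGF-like growth factor (ENSMUSG00000024486, chr18:36504927-36515805), had low values throughout. It was listed at 8.35, 6.34 and 11.4 TPM in the IgG1 group, 6.82, 6.04 and 3.30 in anti-PD-1, 4.73, 5.25 and 3.81 in DOX/IgG1 and 0.78, 6.03 and 2.83 in DOX/anti-PD-1. Every DOX/IgG1 and every DOX/anti-PD-1 tumor lay below every IgG1 tumor, whereas the anti-PD-1 group overlapped with all the others. The gap was narrow, 6.03 against 6.34 TPM, and the share of all genes with this pattern was not counted. With doxorubicin over both antibodies the log2 fold change was -0.77 (standard error 0.33, 95% interval -1.48 to -0.06, adjusted p = 0.375). The estimate was -0.77 in DOX/IgG1 against IgG1 (standard error 0.39) and also in DOX/anti-PD-1 against anti-PD-1 (standard error 0.55), and neither passed the test. The latter depended on single tumors, with -0.25 without DOX/anti-PD-1 1 and -1.24 without DOX/anti-PD-1 2.

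Tgfa, transforming growth factor alpha, a ligand of Egfr (ENSMUSG00000029999, chr6:86195223-86275719), was listed at 4.65, 7.14 and 4.29 TPM in the IgG1 group, 4.58, 12.0 and 5.89 in anti-PD-1, 4.00, 5.56 and 3.93 in DOX/IgG1 and 6.22, 9.58 and 9.38 in DOX/anti-PD-1. Here the DOX/anti-PD-1 tumors lay above all DOX/IgG1 tumors, and the log2 fold change was 0.76 (standard error 0.40, adjusted p = 0.988). Ereg, epiregulin (ENSMUSG00000029377, chr5:91074622-91093646), another ligand of Egfr and Erbb4, stayed at or below 0.89 TPM and was listed at 0 in 3 tumors, so it was not tested. Hbegf exceeded Ereg in 12 of 12 tumors. Summed over the family, receptors came to between 131 and 218 TPM and ligands to between 37.65 and 159.0 TPM per tumor.

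Placed in order of mean level, the family ran from Egfr (65.4 TPM) through Erbb3, Erbb2, Nrg1, Areg (26.0), Erbb4 (21.3), Btc (10.6), Tgfa (6.44) and Hbegf (5.47) to Ereg (0.318). The neighbors that differed beyond the SD of their difference within tumors were Erbb3 and Erbb2, Btc and Tgfa, and Hbegf and Ereg. The other neighbors in this order did not differ beyond that spread.

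For the comparisons between treatments, a gene was tested if 3 or more of the tumors in the fit had 1 TPM or above, which 9 of the 10 members did. A gene was called at a limma p-value, adjusted over all tested genes, below 0.1 if its log2 fold change was also beyond 1 in size. The comparison of anti-PD-1 with IgG1 tumors asks what the antibody does alone, and limma called 0 of 9 members, with 0% of 13692 genes called. No member had an unadjusted p below 0.05, against 630 of all genes, and the groups did not overlap in 0 of 9 members against 9.88% of genes. The members' median log2 fold change was -0.31, from -1.21 for Areg to 0.35 for Tgfa, and that of all genes -0.03. For DOX/anti-PD-1 against DOX/IgG1, 0 of 9 members and 0% of 13946 genes were called, and 0 members had an unadjusted p below 0.05 against 655 genes. Without DOX/IgG1 1 there was 1 member, Nrg1, at an unadjusted p below 0.05, against 1051 genes. Its log2 fold change went from -0.24 to -0.92 (standard error 0.32, adjusted p = 0.604) and that of Erbb4 from -0.44 to -1.38 (standard error 0.61, adjusted p = 0.674), while Areg turned from 0.20 to -0.25. With all tumors 1 of 9 members, Tgfa, did not overlap in this comparison, against 10.2% of genes, so the share of members was near that of all genes. With all 12 tumors in a fit of anti-PD-1 over both chemotherapy arms, limma called 0 of 9 members and 0% of 14735 genes, with 0 members and 691 genes at an unadjusted p below 0.05. Without DOX/IgG1 1 this was 0 members and 917 genes, and the estimate went from -0.22 to -0.62 for Erbb4 and from -0.10 to -0.39 for Nrg1.

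The comparison of DOX/IgG1 with IgG1 tumors asks what chemotherapy does without anti-PD-1, although starting size, first antibody dose and schedule differ too. Limma called 0 of 9 members and 0.036% of 13874 genes, and at an unadjusted p below 0.05 there was 1 member, Areg, against 1073 genes. Without DOX/IgG1 1 it was again 1 member, Areg, against 1804 genes. The groups did not overlap in 2 of 9 members, Areg and Hbegf, both lower, against 14% of genes. For DOX/anti-PD-1 against anti-PD-1, limma called 0 of 9 members and 0% of 13736 genes, with 0 members and 1185 genes at an unadjusted p below 0.05. Btc was the 1 of 9 members that did not overlap, against 14.9% of genes. Doxorubicin over both antibodies, fitted on all 12 tumors, gave 0 of 9 members and 0.0204% of 14735 genes called by limma, and at an unadjusted p below 0.05 there was 1 member, Hbegf, against 1765 genes. For the interaction of doxorubicin with anti-PD-1, limma called 0 of 9 members and 0.00679% of genes, 0 members and 694 genes had an unadjusted p below 0.05, and the members' adjusted p ran from 0.993 to 1. At an unadjusted p below 0.05 there were 1 member, Egfr, and 951 genes once DOX/IgG1 1 was left out. The Egfr interaction went from -0.90 to -1.12 (standard error 0.51, adjusted p = 0.765), that of Erbb4 from -0.44 to -1.39 and that of Nrg1 from -0.28 to -0.96, and none of them was called.

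Doxorubicin comparisons carry a general shift, since the median log2 fold change of all genes was 0.12 for DOX/IgG1 against IgG1, 0.11 for DOX/anti-PD-1 against anti-PD-1 and 0.12 over both antibodies. Scaling by the median of ratios moved these medians to 0.01, -0.01 and 0.01. With listed genes scaled to the same sum they were 0.0693, 0.0823 and 0.0767. Relative to the shift, Areg lay at -2.16 and Hbegf at -0.89 in DOX/IgG1 against IgG1, and Erbb4 lay at -1.24 in DOX/anti-PD-1 against anti-PD-1. Over both antibodies the members' median was -0.15, with 4 of 9 above 0 (Erbb2, Erbb3, Tgfa and Btc) against 63.3% of all genes, and Erbb3 and Tgfa turned below 0 under both other scalings. When DOX/IgG1 1 was left out the members' median was 0.06 with 5 of 9 above 0, and that of all genes 0.13, so the members' median lay below that of all genes in both settings, by 0.26 and 0.07. Without DOX/IgG1 1 the number of called genes went from 5 to 122 (0.879%) in DOX/IgG1 against IgG1 and from 3 to 212 (1.44%) over both antibodies, and no member was among them. Leaving out any other single tumor gave between 0 and 2 genes in the former comparison, and between 0 genes and, without DOX/anti-PD-1 2, 27 genes in the latter.

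**Figure D2:**
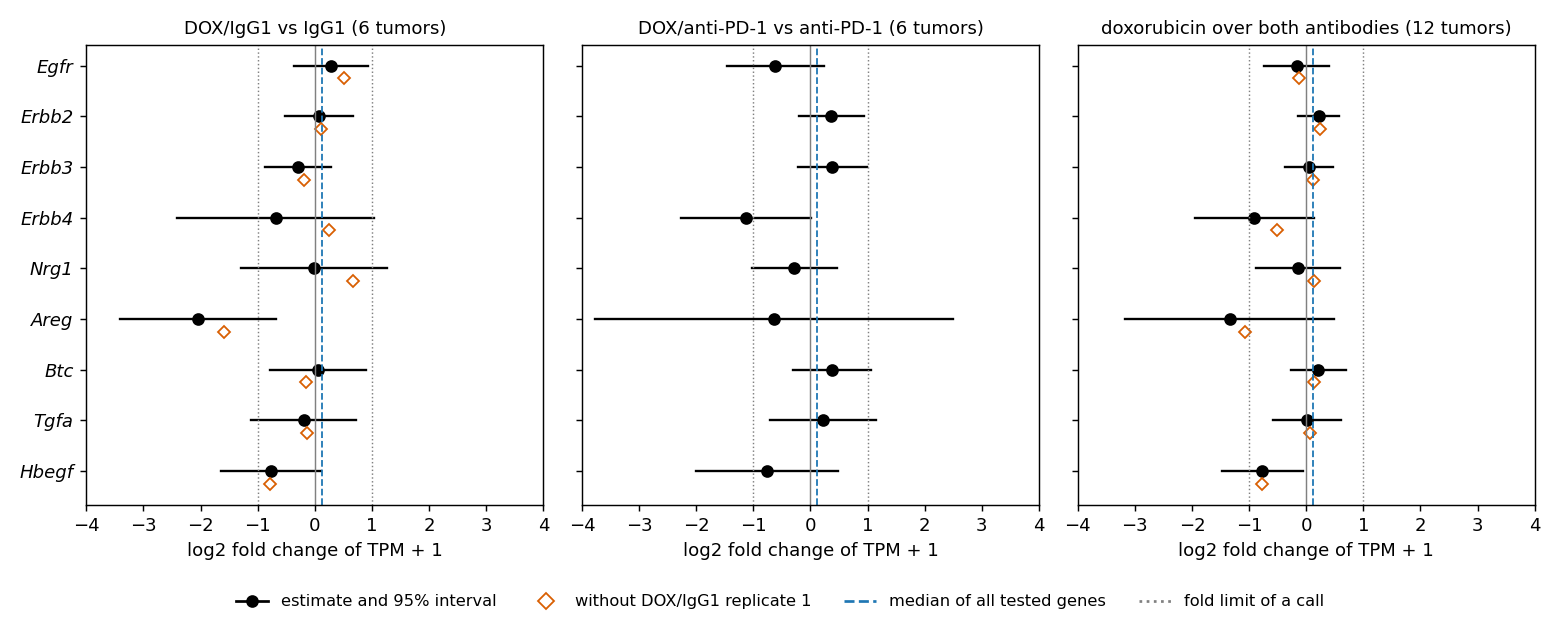
Each panel shows the log2 fold change of the 9 tested members in a doxorubicin comparison as a point with its 95% interval from limma, and open diamonds give the estimate without DOX/IgG1 1. The dashed line is the median of all tested genes, and dotted lines mark the fold limit of a call. Areg lies farthest left in DOX/IgG1 against IgG1, and the Erbb4 estimate there crosses 0 without DOX/IgG1 1.

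Across the 12 tumors, some members varied together. Among the 36 pairs of tested members, Pearson's r of log2(TPM + 1) was above 0.5 in 5 pairs and below -0.5 in 0, and 22 pairs lay above 0. These are descriptions, since the values of a pair come from the same library and the share over all gene pairs was not computed. The highest r was that of the heterodimer partners Erbb2 and Erbb3, 0.685, which was 0.78 with group means removed and 0.771 without DOX/IgG1 1. The others above 0.5 were Erbb4 and its ligand Nrg1 (0.676, and 0.443 without DOX/IgG1 1), Egfr and Erbb4 (0.633, and 0.70 without that tumor), the ligands Areg and Hbegf (0.537, and 0.556) and Egfr with its ligand Areg (0.526, and 0.509). With group means removed these pairs had r of 0.695, 0.65, 0.418 and 0.707 in the same order. Egfr, Areg and Hbegf all had their lowest value in DOX/anti-PD-1 1 (27.88, 0 and 0.78 TPM). How far the r of Areg with Hbegf and with Egfr rests on that tumor was not tested. Erbb3 and Erbb4 had 0.414, which was 0.711 with group means removed and 0.256 without DOX/IgG1 1. Other receptors and ligands that bind each other lay below 0.5 over all tumors, with r, and r without DOX/IgG1 1, of 0.276 and 0.056 for Erbb3 and Nrg1, -0.162 and -0.231 for Egfr and Tgfa, -0.145 and -0.067 for Egfr and Btc, -0.436 and -0.114 for Erbb4 and Btc, 0.441 and 0.444 for Egfr and Hbegf, and 0.482 and 0.614 for Erbb4 and Hbegf.

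Other cell types in the tumors varied too, and in bulk RNA fewer cells of a type and less RNA per cell cannot be told apart. The fibroblast list (7 of 7 genes at or above 1 TPM in every tumor, Col1a1 the most abundant) summed to 1194, 1149 and 1804 TPM in IgG1 tumors, 928, 847 and 683.5 in anti-PD-1, 528, 1822 and 1289 in DOX/IgG1 and 1061, 1408 and 1582 in DOX/anti-PD-1. Nrg1 followed this sum with r = 0.723 and Spearman's rho = 0.706 over 12 tumors, and with r = 0.971 once group means were removed. Without DOX/IgG1 1 the r of 0.723 went to 0.532 and the r of 0.971 to 0.915. Without the pair of tumors farthest from the median, anti-PD-1 3 and DOX/IgG1 1, the plain r was 0.416. The 5 milk protein genes (Csn3 the most abundant, none at 0 in all tumors) summed to 7449, 4765 and 8453 TPM in IgG1 tumors, 6473, 10360 and 7393 in anti-PD-1, 908.5, 3216 and 2497 in DOX/IgG1 and 6037, 8366 and 2880 in DOX/anti-PD-1. All DOX/IgG1 sums lay below all IgG1 sums, and the sums of the anti-PD-1 pair of groups overlapped. Erbb4 followed this sum with r = 0.577 and rho = 0.294, and with r = 0.75 once group means were removed. When DOX/IgG1 1 was left out these r went to 0.192 and 0.477, and without the pair of tumors farthest from the median (DOX/IgG1 1 and DOX/IgG1 3) the plain r was 0.254. Among the pairs of 9 members and 12 marker lists, Tgfa and the luminal sum had r = -0.516 (rho = -0.462), -0.447 with group means removed, -0.814 without DOX/IgG1 1 and -0.772 without the pair of tumors farthest from the median. The luminal sum lay between 2046 and 3751 TPM, and all of these pairs were chosen after their values were seen. Other pairs of members and lists were looked at as well. Erbb4 and the fibroblast sum had r = 0.42 and 0.74 with group means removed, which went to 0.037 and 0.292 without DOX/IgG1 1. Erbb4 and the endothelial sum (44.2 to 110.1 TPM) had r = 0.41 and, without DOX/IgG1 1, 0.744, or 0.906 with group means removed as well, and 0.065 without the pair of tumors farthest from the median. Erbb2 and the fibroblast sum had r = 0.55, and 0.774 without DOX/IgG1 1. Erbb2 and the adipocyte sum had 0.641, 0.651 without DOX/IgG1 1 and 0.38 without the pair of tumors farthest from the median. For Erbb3 the r was 0.619 with the fibroblast sum and 0.559 with the endothelial sum. These went to 0.54 and 0.708 without DOX/IgG1 1. The part of these cell types in the values of Nrg1, Erbb2, Erbb3, Erbb4 and Tgfa was not tested.

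**Figure D3:**
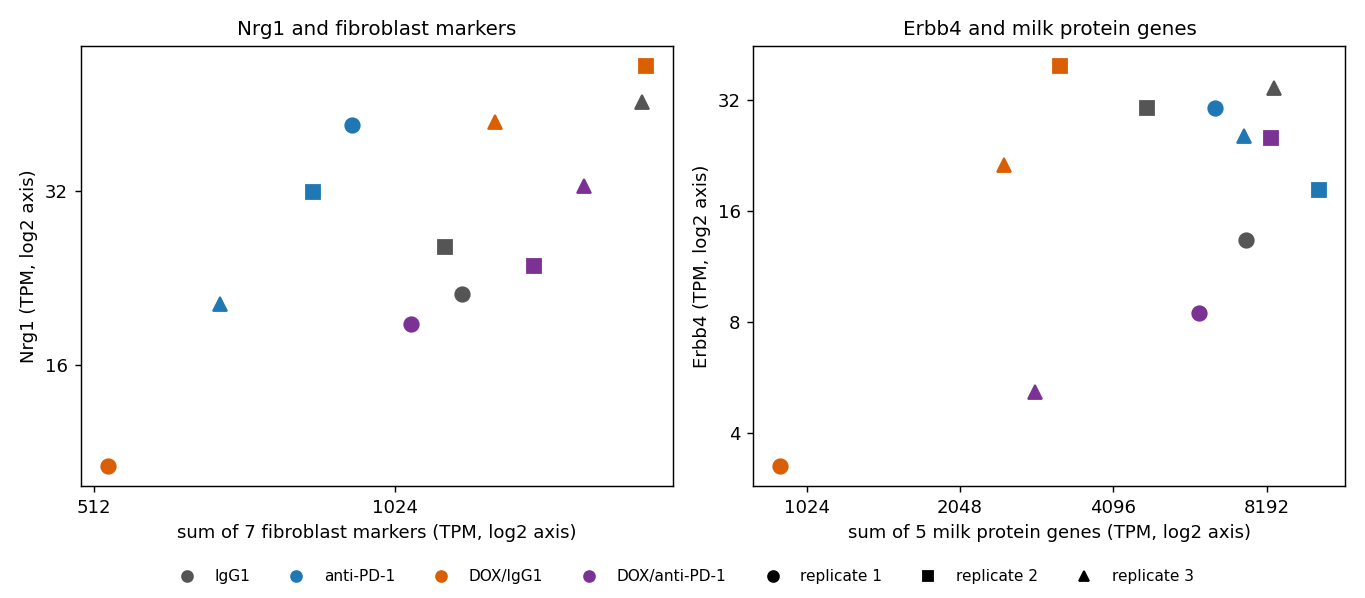
Each point is a tumor, colored by group and shaped by replicate, and all axes are log2 scales of TPM. On the left Nrg1 is plotted against the sum of 7 fibroblast markers, and on the right Erbb4 against the sum of 5 milk protein genes, and DOX/IgG1 1 lies at the lower left of both.

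Of the marker lists, none had a gene called with doxorubicin over both antibodies. The median log2 fold change of the list was -0.18 for luminal epithelium (Epcam), 0.45 for basal or myoepithelial cells (Acta2), 0.25 for fibroblasts and 0.20 for macrophages (C1qa), against 0.12 for all genes. It was 0.82 for T cells (Cd3e, 4 of 5 genes tested), 0.97 for adipocytes (Adipoq) and 0.12 for skeletal muscle (Acta1). It was 0.08 for endothelium (Pecam1), 0.81 for the Schwann cell list (Sox10) and -1.17 for milk-producing cells. The gene in brackets is the most abundant of its list, and its own change can differ from the median. Of the 4 Schwann cell genes, 3 lay above 0. Sox10 ranged from 40.4 to 87.25 TPM without doxorubicin and from 36.28 to 65.97 TPM with it. No rise in Sox10 is therefore read from the median of 0.81. Whether this list marks Schwann cells in these tumors was not tested. The salivary or lacrimal list had a median of 1.13 (Bpifa2), with Lcn11 listed at 0 in all tumors. The list summed to 1.17, 4.98 and 3.32 TPM in IgG1 tumors, 6.91, 0.55 and 25.96 in anti-PD-1, 31.0, 59.2 and 97.6 in DOX/IgG1 and 7.9, 1.41 and 1.49 in DOX/anti-PD-1. In DOX/IgG1 against IgG1, Bpifa2 was called at 4.73 on the log2 scale (standard error 0.53, adjusted p = 0.0334) and Smr3a at 3.87 (standard error 0.43, adjusted p = 0.0334). In this comparison both genes reached the minimum for testing only through the DOX/IgG1 tumors. The filter and the test therefore rest on the same tumors, and no conclusion is drawn from these calls. Bpifa2 was listed at 0 in all 9 tumors outside DOX/IgG1, so its interaction (-4.73, standard error 0.66, adjusted p = 0.0909) is the same difference with the sign turned and adds no support. These calls depended on the fit. Bpifa2 kept its call in 9 of 15 alternatives and Smr3a in 7 of 15. Both were lost with a replicate block (adjusted p = 0.113 and 0.163), with any single IgG1 tumor left out, and without DOX/IgG1 2 or DOX/IgG1 3. Smr3a was also lost with a pseudocount of 0.1 TPM and with a minimum of 5 TPM. The interaction of Bpifa2 kept its call in 3 of 20. The estimates in DOX/IgG1 against IgG1 ran from 4.21 to 7.9998 for Bpifa2 and from 3.73 to 7.10 for Smr3a, the highest with a pseudocount of 0.1 TPM, so their size depends on the pseudocount. Tgfa and this sum had r = -0.619 (rho = -0.629), and -0.577 without DOX/IgG1 1. The part of these cells in the values of members was not tested. B cell markers summed to at most 3.59 TPM, and none was tested.

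The rest of the pathway was described from lists of its other parts, in which 0 genes passed the test with all tumors, while counts at an unadjusted p below 0.05 are given for each list. For doxorubicin over both antibodies, the receptor-proximal adaptors and enzymes had a median log2 fold change of 0.28 against 0.12 for all genes, with 12 of 15 above 0 (63.3% of all genes) and 5 at an unadjusted p below 0.05 (12% of all genes). A majority above 0 was therefore the general pattern of this comparison. Grb7, an adaptor that binds Erbb2, was at the top with 0.64 (standard error 0.26), and Grb2, the adaptor that links receptors to RAS, at the bottom with -0.56 (standard error 0.19, adjusted p = 0.259). When DOX/IgG1 1 was left out, 3 genes of this list were at an unadjusted p below 0.05, Grb7 (0.57) no longer among them, and Grb2 had -0.68 and an adjusted p of 0.0914, under the fold limit of a call. The RAS-ERK cascade had a median of 0.18 with 9 of 10 above 0 and 1 at an unadjusted p below 0.05, against the same 63.3% and 12% of all genes, from Mapk3 at -0.13 to Araf at 0.50. Without DOX/IgG1 1, Mapk3 was at -0.0014 and no longer the lowest. The PI3K-AKT branch also had a median of 0.18 with all tumors, with 10 of 12 above 0 (63.3% of all genes) and 2 at an unadjusted p below 0.05 (12%). It ran from Pik3r1, a regulatory subunit, at -0.23 to Pik3cd, the catalytic subunit of leukocytes, at 0.93 (standard error 0.33, adjusted p = 0.29). When DOX/IgG1 1 was left out, Pik3r1 was at -0.09 and no longer the lowest.

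Sheddases and their regulators had a median of -0.11, with 3 of 9 above 0 (63.3% of all genes) and 1 at an unadjusted p below 0.05 (12%), from Rhbdf2 at -0.45 to Bace1 at 0.49. Without DOX/IgG1 1 the median was -0.197 against 0.13 for all genes, with other genes at both ends. Rhbdf2, which carries the sheddase Adam17 to the cell surface, held 35.7, 34.65 and 36.3 TPM in the IgG1 group and 15.7, 19.35 and 11.7 in DOX/IgG1. The anti-PD-1 tumors held 21.15, 35.9 and 30.7 TPM, and DOX/anti-PD-1 held 40.5, 38.1 and 26.7. All DOX/IgG1 values were below those of every other tumor, and against IgG1 the log2 fold change was -1.17 (standard error 0.28, adjusted p = 0.46). The interaction for Rhbdf2 was 1.43 (standard error 0.40, adjusted p = 0.993), so a difference between the antibody arms did not pass the test either. Of the other ErbB ligands, 4 of 5 were tested, 0 had an unadjusted p below 0.05, their median was -0.10, and Nrg2 (-0.33) and Nrg4 (0.35) marked the ends. Nrg3 was listed at 0 in all tumors.

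Feedback inhibitors of ErbB and ERK had a median of 0.05 (8 of 13 above 0, 1 at an unadjusted p below 0.05), and genes that ERK activity turns on had 0.18 (7 of 10 above 0, 3 at an unadjusted p below 0.05), again beside 63.3% and 12% of all genes. Without DOX/IgG1 1 the feedback list had a median of 0.105 with 9 of 13 above 0, against a median of 0.13 for all genes. It then had 2 genes at an unadjusted p below 0.05, against 2169 of 14735 genes. Dusp4, a phosphatase that acts on ERK and is on both lists, was listed at 18.7, 19.3 and 24.5 TPM in the IgG1 group, 13.5, 15.2 and 12.6 in anti-PD-1, 10.6, 56.7 and 59.4 in DOX/IgG1 and 37.0, 36.7 and 33.6 in DOX/anti-PD-1. Every doxorubicin tumor except DOX/IgG1 1 lay above every tumor without doxorubicin. With all tumors the log2 fold change over both antibodies was 0.99 (standard error 0.34, adjusted p = 0.278), and without DOX/IgG1 1 Dusp4 rose by 1.37 (standard error 0.17, adjusted p = 0.00977), the only gene of these lists called without it. That fit called 212 of all 14735 genes (1.44%), so no conclusion about the lists is drawn from a single called gene. What sets DOX/IgG1 1 apart was not tested. Phlda1, another ERK output gene, had -0.49 (standard error 0.18, adjusted p = 0.31), and Dusp5 had -0.41.

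**Figure D4:**
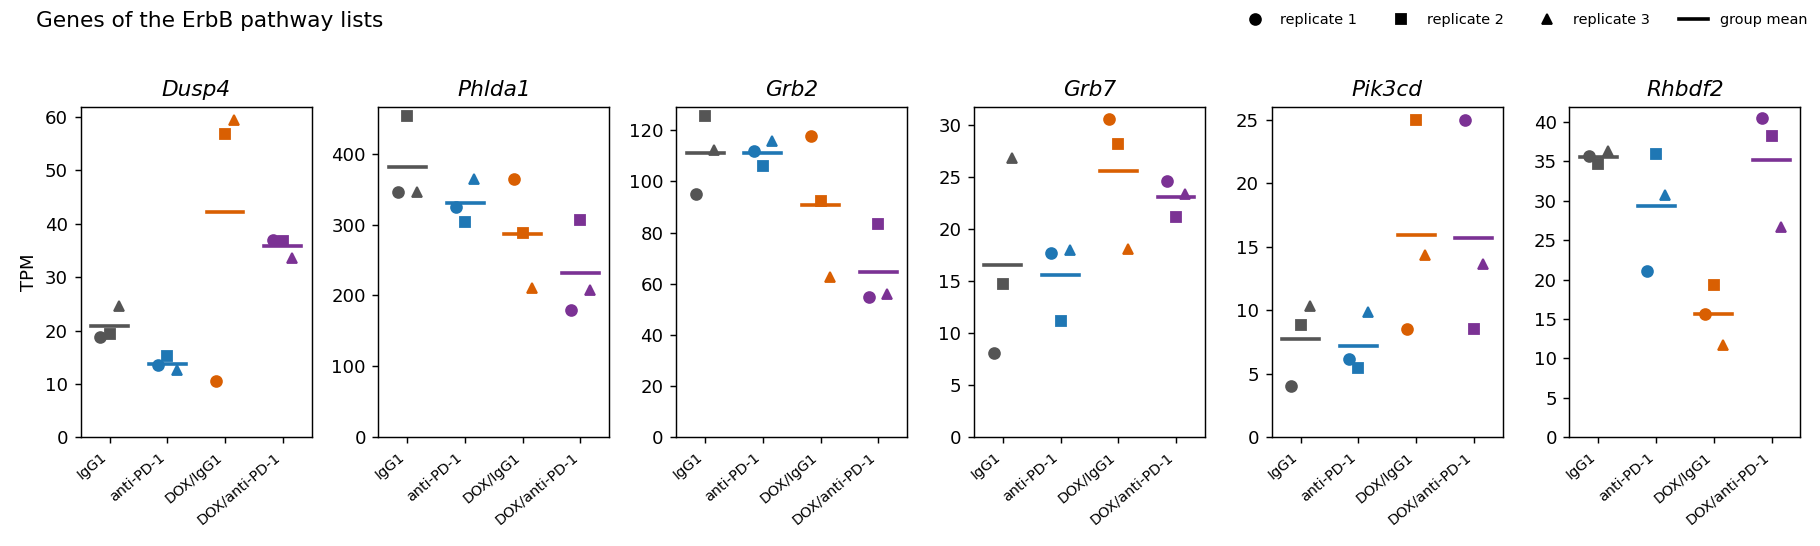
Each panel shows a gene of the pathway lists in TPM in every tumor by treatment group, with replicates as circles, squares and triangles and a line at the group mean, on axes that start at 0. Dusp4 is at 10.6 TPM in DOX/IgG1 1 and at 33.6 TPM or more in the other doxorubicin tumors, and Rhbdf2 is lowest in the 3 DOX/IgG1 tumors.

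Genes next to Erbb2 on chromosome 11, among them Grb7, which is often gained together with it in human breast cancer, were listed for comparison, and 7 of 10 were tested. Their median was 0.29, with 6 of 7 above 0 (63.3% of all genes) and 1 at an unadjusted p below 0.05 (12%), from Pgap3 at -0.18 to Ppp1r1b at 0.96 (standard error 0.63). Pnmt was listed at 0 in all tumors. Erbb2 itself had 0.22 (standard error 0.17, adjusted p = 0.642).

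The genes whose log2(TPM + 1) followed a receptor most closely over the 12 tumors, among 11300 genes with a mean of at least 5 TPM, were picked by the highest r. For Egfr they were Sat2 (r = 0.895), Car13 (0.884) and Vps50 (0.878). For Erbb2 they were Fam193b (0.927), Arhgef18 (0.903) and Irak2 (0.876). For Erbb3 they were 9230102O04Rik (0.898), C2cd2 (0.855) and Rgma (0.854), and for Erbb4 Celf2 (0.899), Arid3a (0.891) and Atp2a3 (0.886). The genes closest to Nrg1, the most abundant ligand, included Tgfbr1 (0.931) and Emilin1 (0.901). The highest correlations among so many genes are high by selection, and these names are a description of shared variation between libraries.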

How the data were processed

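Total RNA of 12 snap-frozen tumors was sequenced, 3 in each of 4 groups. The authors trimmed reads, mapped them to mm10 with STAR, quantified genes with RSEM and deposited log2 values of TPM + 1, with TPM scaled for gene length, for 21960 genes. Software versions are not given, and the depth is unknown. Genes at 1 TPM or more in at least 3 tumors were tested with limma 3.58.1 (mean-variance trend, two-sided, Benjamini-Hochberg over all tested genes) in R 4.3.3, and called at an adjusted p below 0.1 with a log2 fold change beyond 1 in size. The fits were tested on simulated data. Alternatives changed the pseudocount, minimum, scaling, trend, limits and tumors, or added a replicate block. Coordinates come from GENCODE vM21, whose identifiers matched 21860 genes. Count-based tests were left out because there are no counts. Members and lists were chosen with earlier results of these data known. Named genes are all members, every called list gene, the top rise and fall of each list with doxorubicin, the 3 genes closest to each receptor and to the top ligand (of which 1 gene is not reported here), and the most abundant marker of each cell type with those at 0 throughout. Rps12, Lsm7, the sheddase and phosphatase genes shown by tumor, the pairs of a member and a marker sum, and marker values of single tumors were picked after their values were seen.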

Additional observations from a re-analysis of the deposited data

How the results depend on the processing

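Of the 121 counts of called ErbB genes under alternatives, 0 were above 0, a number that covers all 7 comparisons. In the 3 doxorubicin comparisons the lowest adjusted p of any member under these alternatives was 0.248, and of 431 log2 fold changes of members 31 changed sign and 0 were called. Groups hold 3 tumors, and without counts the depth sets an unknown limit on low values such as Ereg. The counts of all called genes moved as follows, and the cause was not tested.

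For anti-PD-1 against IgG1 (0 genes) the count was 1 with no mean-variance trend and 0 to 4 with each tumor left out in turn. For DOX/anti-PD-1 against DOX/IgG1 (0 genes) it was 3 with the median of ratios scaling, 3 with listed genes scaled to the same sum, 3 with no trend, 2 with all 12 tumors in a single fit and 0 to 4 with a tumor left out. For DOX/IgG1 against IgG1 (5 genes) it was 13 with no trend, 2 with a replicate block and 0 to 122 with a tumor left out: 0 without any of the IgG1 tumors or DOX/IgG1 3, 2 without DOX/IgG1 2 and 122 without DOX/IgG1 1. For DOX/anti-PD-1 against anti-PD-1 (0 genes) it was 3 with no trend and 0 to 4 with a tumor left out.

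For doxorubicin over both antibodies (3 genes, all higher) the count was 13 with a minimum of 5 TPM (6 higher), 14 with the median of ratios scaling (3 higher), 8 with listed genes scaled to the same sum (3 higher), 0 with no trend, 1 with a replicate block and 0 at an adjusted p below 0.05 with no fold limit. With a tumor left out it was 0 to 212, with 0 genes without IgG1 2, IgG1 3, anti-PD-1 1 or DOX/IgG1 3, 1 without DOX/anti-PD-1 3, 5 without anti-PD-1 3, 6 without DOX/anti-PD-1 1, 27 without DOX/anti-PD-1 2 and 212 without DOX/IgG1 1. It was 316 with DOX/IgG1 1 and DOX/anti-PD-1 1 both left out, an alternative chosen after seeing the data. For anti-PD-1 over both chemotherapy arms it was 0 under all 20 alternatives. For the interaction (1 gene) it was 0 with a pseudocount of 0.1 TPM, 3 with no minimum, 0 with a minimum of 5 TPM, 0 with either scaling, 3 with no trend, 0 with a replicate block, 0 at an adjusted p below 0.05 and 0 to 1 with a tumor left out.

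Log2 fold changes of members changed sign or size under these alternatives, with no cause tested. With the median of ratios scaling, Erbb2 had -0.0444 and Btc -0.0561 in DOX/IgG1 against IgG1, and Erbb3 had -0.0793 and Tgfa -0.093 over both antibodies. With a pseudocount of 0.1 TPM, Areg went from -0.64 to -1.63 in DOX/anti-PD-1 against anti-PD-1 and from -1.34 to -1.90 over both antibodies. With listed genes scaled to the same sum, Btc had -0.0033 in DOX/IgG1 against IgG1, and Erbb3 -0.0023 and Tgfa -0.0266 over both antibodies. With both tumors named above left out, Areg went from -1.34 to -0.28, Egfr had 0.13, Nrg1 0.28 and Erbb4 -0.37 over both antibodies. With a tumor left out, the values in DOX/IgG1 against IgG1 ran from -0.0519 to 0.20 for Erbb2, -0.16 to 0.29 for Btc, -0.43 to 0.67 for Nrg1, -1.37 to 0.26 for Erbb4, 0.11 to 0.50 for Egfr, -0.41 to -0.13 for Erbb3, -0.33 to -0.0050 for Tgfa and -2.46 to -1.43 for Areg. In DOX/anti-PD-1 against anti-PD-1 they ran from -1.24 to -0.25 for Hbegf, -1.72 to -0.68 for Erbb4, -0.94 to -0.24 for Egfr, -0.55 to -0.0583 for Nrg1, 0.20 to 0.59 for Erbb3, -2.09 to 1.04 for Areg and -0.0332 to 0.58 for Tgfa. Over both antibodies they ran from -2.06 to -0.67 for Areg, -1.24 to -0.51 for Erbb4, -0.98 to -0.54 for Hbegf, -0.0754 to 0.15 for Erbb3, -0.12 to 0.15 for Tgfa, -0.35 to 0.14 for Nrg1 and -0.29 to 0.0516 for Egfr. Tgfa was not tested in DOX/IgG1 against IgG1 with a minimum of 5 TPM. Whether replicate numbers pair tumors is not given. After group means were removed, 18 pairs of tumors with the same number had a median correlation of 0.017, from -0.0963 to 0.134, against -0.0044 in 36 other pairs, from -0.19 to 0.113, and 8 of 12 tumors had their best match in a tumor of the same number. With a replicate block, 0 members were called.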
